A study of Homo sapiens with 18 samples.

Results

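MDA-MB-468 breast cancer cells given an antisense oligonucleotide (ASO) that targets AL078604.2, a long non-coding RNA, were compared with the same line given a control ASO. The comparison used 6 of the 18 arrays of the series, chosen by their titles. In the anti-AL078604.2 group, 3 arrays measured cells treated for 48 h with 15 nM of the anti-AL078604.2 GapmeR in the reagent TransIT-BrCa. In the control group, 3 arrays measured cells that had the control GapmeR at the same dose, time and reagent, so both groups carried an oligonucleotide and a transfection reagent. The design asks how AL078604.2 shapes the transcriptome of triple-negative breast cancer cells. The other 12 arrays measured MDA-MB-231 cells with the same 2 treatments and SKBR3 cells with an ASO against another RNA or a control ASO, 3 arrays a group. They entered the estimate of spread, and MDA-MB-231 is set beside MDA-MB-468 once. All 3 anti-AL078604.2 arrays were labelled with the same ASO, so effects of its sequence on other RNAs and effects of losing its target cannot be told apart.

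A GapmeR is a short oligonucleotide with a DNA core and modified ends. Its core pairs with an RNA and lets the nuclear enzyme RNase H cut that RNA, which makes it a common tool against long non-coding RNAs. MDA-MB-468 is a triple-negative, basal-like line, without oestrogen or progesterone receptor and without HER2 amplification, and is known for amplified EGFR. Signals of the EGF receptor pass through the MAPK cascade to immediate early transcription factors such as EGR1 and JUN and to feedback inhibitors such as the DUSP phosphatases and SPRY proteins. Transfected nucleic acids can also be met by sensors such as cGAS and MDA5, which lead to interferon-stimulated genes.

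The arrays gave log2 values per transcript cluster, here called a feature, and 29855 features were tested. The 6 arrays had medians of 5.21 to 5.24 and pairwise correlations of 0.986 to 0.991 within a group and 0.988 to 0.991 between groups. Pairs with anti-AL078604.2 replicate 3 had the lowest correlations, 0.986 to 0.988, against 0.989 to 0.991 in all other pairs. Nothing in the labels says that the 3 arrays of a group came from separate cultures, so p-values measure the spread between these samples, which may be technical. The median absolute deviation from the group mean was 0.104, 0.0652 and 0.112 log2 in anti-AL078604.2 replicates 1, 2 and 3, and 0.0716, 0.0656 and 0.069 in control replicates 1, 2 and 3. The level of AL078604.2 itself was not analysed here, since no feature carries its name. The labelled line was only partly borne out by its markers, given as percentiles within an array group. EGFR stood at percentile 98.5 in anti-AL078604.2 arrays and 98.7 in control arrays, but also at 98.2 and 99.0 in the MDA-MB-231 and SKBR3 controls. The tumour suppressor RB1, known to be lost in MDA-MB-468, was low at 28.6 and 24.9, against 60.5 in the MDA-MB-231 and 48.0 in the SKBR3 controls, and the basal keratin KRT5 was high at 82.3 and 85.8, against 73.6 and 69.8. Other markers ran otherwise: the basal keratin KRT14 stood at 81.8 and 79.4, against 89.2 and 72.2, and the mesenchymal VIM at 87.0 and 82.4, against 76.7 and 76.3. SMAD4 stood at 51.0 and 54.0, against 58.5 and 45.9, and KRT6B and KRT17 have no named feature. The text therefore speaks of arrays labelled MDA-MB-468. Of the leukocyte markers, 6 of 12 had a named feature and averaged 5.45 to 5.76 per anti-AL078604.2 array, against 5.44 to 5.54 per control array. Of the fibroblast and endothelial markers, 5 of 13 did, at 4.44 to 4.53 per anti-AL078604.2 array, against 4.46 to 4.50 per control array. The leukocyte list had 1 higher member, CD68 (0.38), among 4 tested, and the other list 0 among 2. In a bulk measurement, fewer cells of a type and less RNA per cell cannot be told apart.

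Promoter stretches of 5 genes are shown because these genes belong to groups described below: CMTM3, the named gene that passed the test, TFPI2 and CPA4, a protease inhibitor and a carboxypeptidase with wide differences, EGR1, an immediate early gene, and SAMD9, an interferon-stimulated gene. Each stretch is the 150 bases before a RefSeq gene start in GRCh38.p14, at chr16:66604581-66604730, plus strand for CMTM3, chr7:93890754-93890903, minus strand for TFPI2, chr7:130293011-130293160, plus strand for CPA4, chr5:138465329-138465478, plus strand for EGR1 and chr7:93117980-93118129, minus strand for SAMD9. Capitals mark a match to 1 of 4 motifs searched on both strands of the 250 bases before each start: the AP-1 site TGANTCA, the cyclic AMP response element TGACGTCA, the interferon-stimulated response element (GAAA, any 2 bases, GAAA) and the serum response element (CArG box). No stretch holds matches to more than 1 of these motifs. Apart from CMTM3, the start shown for each gene was picked for holding the marked motif, so a match was certain there.
CMTM3: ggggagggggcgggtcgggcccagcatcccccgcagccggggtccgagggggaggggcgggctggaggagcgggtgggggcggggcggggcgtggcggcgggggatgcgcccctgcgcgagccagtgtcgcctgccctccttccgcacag
TFPI2: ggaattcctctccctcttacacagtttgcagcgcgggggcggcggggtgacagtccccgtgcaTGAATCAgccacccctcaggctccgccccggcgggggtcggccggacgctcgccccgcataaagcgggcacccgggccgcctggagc
CPA4: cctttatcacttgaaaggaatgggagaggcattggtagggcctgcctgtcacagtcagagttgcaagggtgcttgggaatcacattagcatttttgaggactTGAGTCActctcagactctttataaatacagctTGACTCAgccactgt
EGR1: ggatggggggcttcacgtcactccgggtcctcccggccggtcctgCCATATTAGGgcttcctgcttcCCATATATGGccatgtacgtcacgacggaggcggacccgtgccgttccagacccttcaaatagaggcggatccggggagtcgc
SAMD9: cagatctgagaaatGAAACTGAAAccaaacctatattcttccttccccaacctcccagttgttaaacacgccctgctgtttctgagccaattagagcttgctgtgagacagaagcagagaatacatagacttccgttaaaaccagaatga

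None of the 3 CMTM3 starts held any of the 4 motifs. The AP-1 match of TFPI2 begins 87 bases before its start, those of CPA4 begin 48 and 15 bases before, the CArG boxes of EGR1 begin 105 and 83 bases before, and the interferon-stimulated response element of SAMD9 begins 136 bases before. Over all 27305 genes of the promoter table, 8.06% held an AP-1 site, 2.03% a cyclic AMP response element, 3.71% an interferon-stimulated response element and 1.44% a CArG box. Among tested interferon-stimulated genes in that table, 11 of 18 held the interferon-stimulated response element, among squamous genes 8 of 20 held an AP-1 site, and among immediate early genes 2 of 16, EGR1 and SRF, held a CArG box. Among MAPK feedback genes 3 of 12, DUSP1, DUSP8 and EPHA2, held the cyclic AMP response element. None of the 12 named genes with the smallest p in either direction held any of the 4 motifs, among the 10 higher and 12 lower genes the table lists. A match describes letters and not binding.

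After the anti-AL078604.2 ASO, CMTM3 was the named gene that rose. CMTM3 encodes a small membrane protein of the chemokine-like factor family, whose MARVEL domain spans the membrane. Its log2 values were 6.14, 6.02 and 5.93 in the anti-AL078604.2 arrays, against 5.25, 5.21 and 5.34 in the control arrays. The control values lay near the array medians of 5.21 to 5.24. The lowest anti-AL078604.2 array lay above the highest control array, and the change was 0.76 ± 0.104 log2 (SE), or 1.70-fold, with a limma adjusted p of 0.0213. The unnamed feature 17020846 also rose, with values of 9.21, 9.17 and 9.07 against 8.73, 8.61 and 8.56 and a change of 0.51 ± 0.0684 (adjusted p = 0.0213). These 2 were 0.0067% of the features tested, both higher. No feature was called lower, while 1564 lower features (5.24%) and 1567 higher features (5.25%) had an unadjusted p under 0.05. Both calls depend on the spread shared with the other lines and on single arrays. Fitted on the 6 MDA-MB-468 arrays alone, CMTM3 kept its change of 0.76 with an adjusted p of 0.152. It lost its call without anti-AL078604.2 replicate 1 (0.128) or 2 (0.126) or without control replicate 1 (0.107), 2 (0.237) or 3 (0.135), and kept it without anti-AL078604.2 replicate 3 (0.0333). Without that replicate 12 features passed, 9 of them lower, including CDCA7L, WDR7 and CPA4. With weights that let the arrays differ in quality, 5199 features passed, 2418 higher and 2781 lower, with an estimated weight of 9.62 for anti-AL078604.2 replicate 2, against 0.48 and 0.39 for replicates 1 and 3. For 17020846 the call held in 2 of the 6 omissions, with adjusted p from 0.022 to 0.237.

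**Figure D1:**
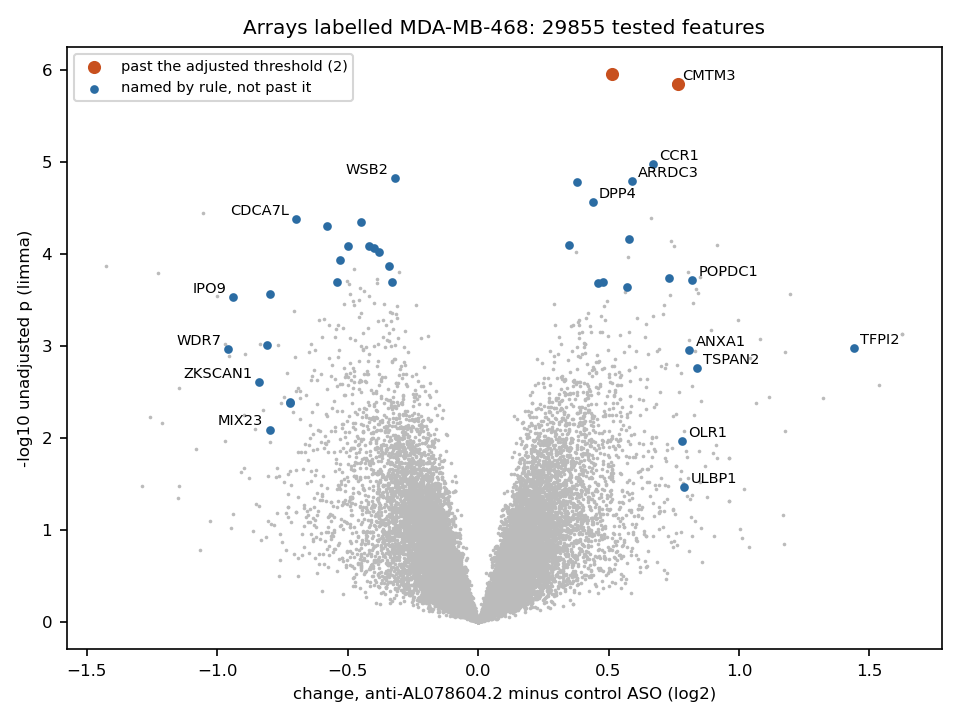
Change of each of the 29855 tested features in the arrays labelled MDA-MB-468, anti-AL078604.2 minus control ASO in log2 on the horizontal axis, against minus log10 of the unadjusted limma p on the vertical axis. Orange points are the 2 features past the adjusted threshold of 0.05, CMTM3 and an unnamed feature, and blue points are named genes that did not pass, with TFPI2 farthest to the right among them.

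Across the MARVEL-domain family of CMTM3 the differences were mostly small. Of 25 genes listed, 21 were tested, with a median change of 0.03 log2, 1 past the threshold, 2 higher and 1 lower at an unadjusted p under 0.05. Over all named genes, with 1 feature each, those shares were 6.3% higher and 6.01% lower and the median change was 0.001. Above 0 lay 50.4% of these genes, and these shares are the background for the list counts below. Groups that did not overlap were 10.1% of those genes in the higher and 9.54% in the lower direction. CMTM1, CMTM2 and CMTM4 neighbour CMTM3 on chromosome 16 in the RefSeq table. CMTM4, a protein of the same family known to stabilise PD-L1, had 8.93, 8.92 and 8.96 in anti-AL078604.2 arrays, against 9.16 in each of the 3 control arrays. Its difference of -0.22 ± 0.0694 was without overlap but did not pass (adjusted p = 0.297). CMTM1 was higher by 0.23 (0.404) and CMTM2 by 0.14 (0.779), neither passing. NAE1, an enzyme subunit gene of neddylation 3 protein-coding genes away from CMTM3 in RefSeq order, was higher by 0.27 (0.248), also without passing. CMTM8, linked to internalisation of the EGF receptor, differed by -0.19 (0.488) with overlapping groups. The tight junction protein gene OCLN differed by 0.09 (0.746) without overlap.

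Several other genes were higher without passing. CCR1, a receptor for inflammatory chemokines, had 5.99, 6.22 and 6.13 after the anti-AL078604.2 ASO, against 5.24, 5.53 and 5.55 in control arrays. Its difference was 0.67 ± 0.107 and its adjusted p 0.0817, which became 0.0342 with a variance model without an intensity trend. ARRDC3, an arrestin-domain adaptor for receptor ubiquitination, had 10.12, 9.89 and 10.28 against 9.49, 9.42 and 9.62 (0.59 ± 0.0975, adjusted p = 0.0817). PGM2L1, which makes glucose 1,6-bisphosphate, had 9.13, 9.05 and 9.11 against 8.77, 8.64 and 8.74 (0.38 ± 0.0632, 0.0817). In these 3 genes every anti-AL078604.2 array lay above every control array. The surface peptidase gene DPP4 followed (0.44, adjusted p = 0.116), then GPCPD1, a glycerophosphocholine phosphodiesterase gene (0.35, 0.129), and MORN3 (0.58, 0.129). With an adjusted p of 0.15 stood the actin-binding gene NEXN (0.73), the membrane protein gene POPDC1 (0.82), PLEK2, which acts in cell spreading (0.48), and KCTD12, an auxiliary subunit of GABA-B receptors (0.46). None of these passed. In total 6 features had an adjusted p under 0.1, including both calls, and 131 had one under 0.2.

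The largest higher differences varied more among the treated arrays. TFPI2, a secreted inhibitor of serine proteases, had 8.80, 7.61 and 7.33 in anti-AL078604.2 arrays, against 6.38, 6.36 and 6.69 in control arrays. The lowest treated array still lay above the highest control array, but replicate 1 stood far above the others, and the difference of 1.44 ± 0.362 log2, or 2.71-fold, did not pass (adjusted p = 0.205). Of the 31 features with a difference of at least 2-fold, TFPI2 was the 1 that carried a name. The tetraspanin gene TSPAN2 had 7.45, 6.85 and 6.38 against 5.80, 6.15 and 6.23 (0.84, adjusted p = 0.238). The annexin gene ANXA1 had 10.34, 10.02 and 9.65 against 9.06, 9.31 and 9.19 (0.81, 0.206). OLR1, a scavenger receptor for oxidised lipoprotein, was higher by 0.78 (0.327) and ULBP1, a ligand of the natural killer receptor NKG2D, by 0.79 (0.435). Among the 8 largest higher differences of named genes without overlap, which also held POPDC1, NEXN and CMTM3, anti-AL078604.2 replicate 1 was farthest from the control mean in 7 and replicate 3 nearest in 5.

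The lower genes with the smallest p also did not pass. WSB2, a substrate receptor of a ubiquitin ligase, had 10.41, 10.46 and 10.48 in anti-AL078604.2 arrays, against 10.78, 10.79 and 10.74 in control arrays (-0.32 ± 0.0526, adjusted p = 0.0817). CDCA7L, a MYC-binding protein gene, had 8.44, 8.54 and 9.06 against 9.40, 9.31 and 9.43 (-0.70 ± 0.126, 0.12). The ubiquitin ligase gene RNF115 had 9.42, 9.62 and 9.70 against 10.03, 10.03 and 10.02 (-0.45 ± 0.0812, 0.12). In each of these genes the groups did not overlap, and in CDCA7L and RNF115 anti-AL078604.2 replicate 3 lay nearest the controls. DENND11 (-0.58, adjusted p = 0.123), FOXRED2, an oxidoreductase of the endoplasmic reticulum (-0.42, 0.129), the antisense RNA gene ASB16-AS1 (-0.50, 0.129), ZNF609 (-0.40, 0.129) and the metalloprotease inhibitor gene TIMP3 (-0.38, 0.13) came next. They were followed by the tetraspanin gene TSPAN14 (-0.53, 0.145) and, at 0.15, by RNF144B, a ubiquitin ligase gene (-0.34), TRAPPC3, a vesicle tethering subunit gene (-0.54), and CDC45 (-0.33). CDCA7L had an adjusted p of 0.00286 when anti-AL078604.2 replicate 3 was left out.

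The largest lower differences shared an order among arrays. IPO9, a nuclear import receptor for histones and actin, had 9.22, 9.41 and 9.95 in anti-AL078604.2 arrays, against 10.45, 10.48 and 10.46 in control arrays (-0.94 ± 0.204, adjusted p = 0.16). WDR7, a partner of the vesicular proton pump, had 6.88, 7.25 and 8.03 against 8.37, 8.38 and 8.29 (-0.96 ± 0.242, 0.206). WDR4, a subunit of the enzyme that methylates transfer RNA, had 6.28, 6.29 and 6.79 against 7.25, 7.29 and 7.23 (-0.80 ± 0.174, 0.159). In all 3 genes the control arrays lay closer to each other than the treated arrays did. The zinc finger gene ZKSCAN1 (-0.84, adjusted p = 0.248), the polarity gene PARD3B (-0.81, 0.203), MIX23 (-0.80, 0.312), RGP1, part of an exchange factor for RAB6 (-0.72, 0.278), and the corepressor gene LCOR (-0.72, 0.278) completed the 8. In all 8, anti-AL078604.2 replicate 1 was farthest from the control mean and replicate 3 nearest to it. That order held in 21.9% of all tested features, where replicate 1 was farthest in 33.2% and replicate 3 in 42.1%.

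**Figure D2:**
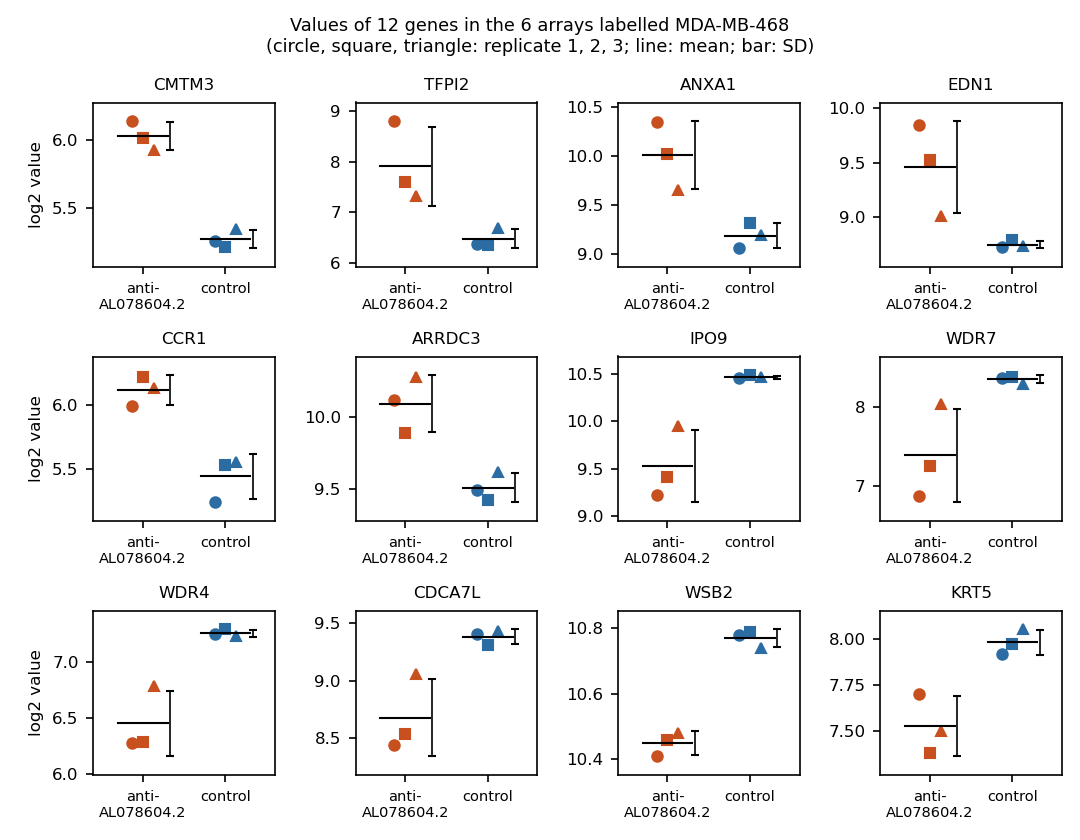
Log2 values of 12 genes in the 6 arrays labelled MDA-MB-468, anti-AL078604.2 arrays on the left of each panel and control arrays on the right, with the mean as a line and the SD as a bar, each panel on its own axis. CMTM3 and WSB2 are tight in both groups, while TFPI2, ANXA1, EDN1, IPO9 and WDR7 are tight in the control arrays and wide in the anti-AL078604.2 arrays.

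Members of the EGF receptor family lay on both sides of 0, 5 above and 7 below. Array medians of the list were 0.005, -0.089 and -0.061 in anti-AL078604.2 arrays, against 0.023, 0.086 and 0.043 in control arrays. They did not overlap. Array medians are given for some lists only, here and below, and their overlap was not tested. Of single named genes, 10.1% were higher and 9.54% lower without overlap. Of 12 tested members, 1 was higher and 1 lower at an unadjusted p under 0.05, 0 passed, and the median difference was -0.08 log2. LRIG1, a membrane protein that promotes degradation of EGF receptors, had 9.34, 9.39 and 9.41 in anti-AL078604.2 arrays, against 9.87, 9.90 and 9.89 in control arrays (-0.51 ± 0.141, adjusted p = 0.247). ERRFI1, a cytoplasmic inhibitor of the receptor, had 10.24, 10.02 and 10.01 against 9.80, 9.75 and 9.80 (0.31 ± 0.0753, 0.194). The 2 inhibitor genes differed without overlap, in opposite directions and without passing. The receptor gene EGFR itself differed by -0.10, and the ligand genes BTC by -0.22 (0.589) and EGF by -0.19 (0.655).

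Genes of the MAPK pathway were mostly above 0, where 50.4% of all named genes lay above 0. Of 17 MAPK feedback and ETS genes, 14 were above 0, 4 were higher and 0 lower at an unadjusted p under 0.05, 0 passed, and the median was 0.17 log2. ETV1, an ETS transcription factor, had 7.38, 7.33 and 7.14 in anti-AL078604.2 arrays, against 6.77, 6.68 and 6.69 in control arrays (0.57 ± 0.121, adjusted p = 0.157). DUSP1, a phosphatase of MAP kinases, had 8.16, 7.75 and 7.50 against 7.11, 7.32 and 7.14 (0.62 ± 0.183, 0.272). The ERK phosphatase gene DUSP6 had 7.60, 6.92 and 6.63 against 6.62, 6.58 and 6.60 (0.45, 0.385), and the inhibitor gene SPRY4 was higher by 0.52 (0.30) with overlapping groups. In DUSP1, DUSP6 and SPRY4, anti-AL078604.2 replicate 1 was the highest of the 6 arrays. Immediate early transcription factors had a median of 0.12 over 21 genes, 18 of them above 0, with 5 higher, 1 lower and 0 past the threshold. EGR1, whose promoter holds the CArG boxes shown above, had 7.26, 6.91 and 7.08 against 6.60, 6.74 and 6.87 (0.35 ± 0.126, 0.338), and its second feature differed by 0.14. JUN, a subunit of AP-1, had 9.38, 9.07 and 8.83 against 8.73, 8.60 and 8.92 (0.35, 0.318), and its difference was 0.20 to 0.48 when 1 array was left out. In JUN, control replicate 3 lay above anti-AL078604.2 replicate 3. The early gene IER3, whose several features differed by 0.27 to 0.31, had 11.56, 11.06 and 11.02 against 10.82, 10.83 and 11.08 (0.31, 0.39), and 0.13 to 0.40 when 1 array was left out. IER5 had 9.08, 8.87 and 8.38 against 9.05, 9.08 and 9.22 (-0.34, 0.385), and -0.49 to -0.14 when 1 array was left out. In IER3 and IER5 the groups also overlapped.

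Both MAPK-related lists had their highest level in anti-AL078604.2 replicate 1. Relative to each gene's mean over the 6 arrays, the median of the MAPK feedback list was 0.279, 0.037 and -0.094 in anti-AL078604.2 replicates 1, 2 and 3, against -0.081, -0.084 and -0.075 in control replicates 1, 2 and 3. For immediate early genes it was 0.301, 0.005 and -0.091, against -0.051, -0.06 and -0.038. In both lists replicate 1 stood above all other arrays and replicate 3 below every control array, so the groups overlapped. Without anti-AL078604.2 replicate 1 the list median of the difference was 0.06 for MAPK feedback genes, against 0.17 with all 6 arrays. For immediate early genes it was 0.02, against 0.12 with all 6 arrays and 0.001 over all named genes.

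**Figure D3:**
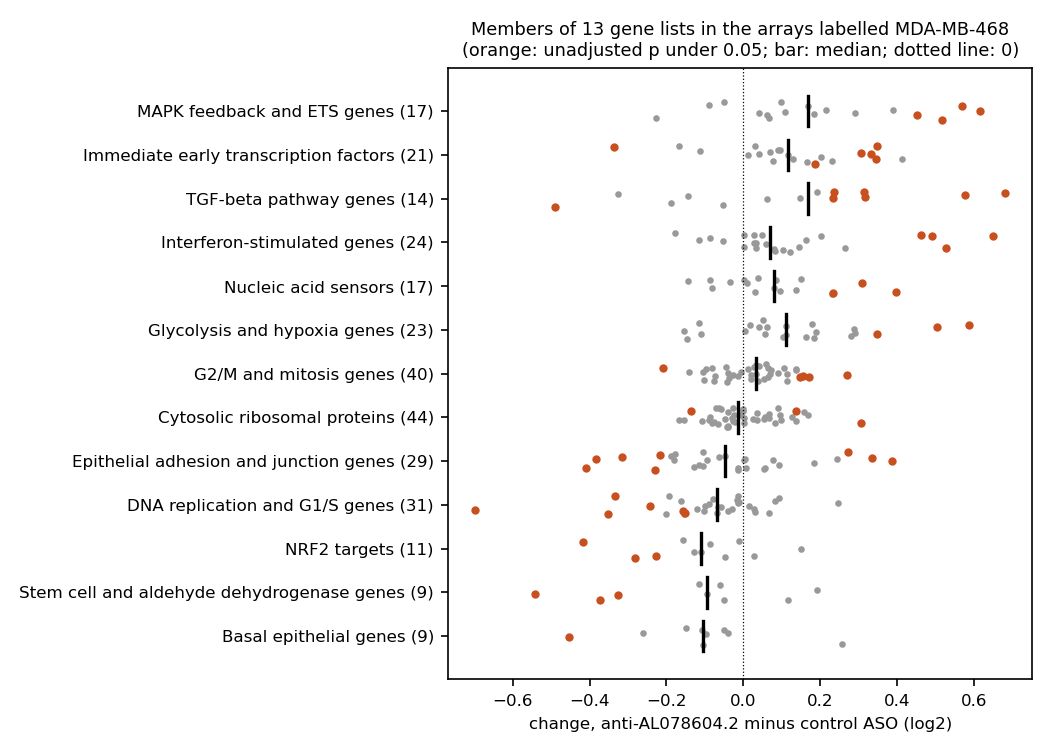
Change of each tested member of 13 gene lists in the arrays labelled MDA-MB-468, anti-AL078604.2 minus control ASO in log2, with the number of members behind each name, the median as a bar and members with an unadjusted p under 0.05 in orange. The medians lie between 0.17 (MAPK feedback and TGF-beta genes) and -0.11 (NRF2 targets), within the spread of their members.

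Interferon-stimulated genes had a median of 0.07 log2 over 24 tested members, 20 of them above 0, with 4 higher, 0 lower and 0 past the threshold. Over all named genes, 50.4% were above 0, and 6.3% were higher and 6.01% lower at an unadjusted p under 0.05. HERC5, the ligase that attaches ISG15, had 6.69, 6.43 and 6.34 in anti-AL078604.2 arrays, against 5.85, 5.76 and 5.91 in control arrays (0.65 ± 0.18, adjusted p = 0.248). SAMD9, an antiviral restriction factor, had 7.59, 7.92 and 8.04 against 7.50, 7.36 and 7.30 (0.46 ± 0.156, 0.318). The antiviral RNA-binding protein genes IFIT3 (0.53, 0.335) and IFIT2 (0.49, 0.427) were also without overlap. Array medians of this list were 0.15, 0.036 and -0.007, against -0.106, -0.032 and 0.034, and overlapped. Nucleic acid sensors had a median of 0.08 over 17 genes, with 3 higher, 0 lower and 0 passing. IFIH1, which encodes the RNA sensor MDA5, had 7.48, 7.62 and 7.76 against 7.50, 7.23 and 7.21 (0.31, 0.327). The DNA sensor gene CGAS had 5.80, 5.76 and 5.80 against 5.22, 5.61 and 5.34 (0.40, 0.456), and TBK1, the kinase below both, was higher by 0.23 (0.341). The toll-like receptor adaptor gene TICAM1 differed by 0.23 (0.509). NF-kB inflammatory genes had a median of 0.06 over 15 genes with 0 at an unadjusted p under 0.05 in either direction, among them ICAM1 (0.33), IL32 (0.33), NFKB2 (0.25) and NFKB1 (-0.10).

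TGF-beta pathway genes held 6 higher and 1 lower member at an unadjusted p under 0.05 among 14 tested, 0 past the threshold, with a median of 0.17 log2. Earlier results of these data were known when the list was chosen, so the counts are descriptions only. BMP4, a secreted ligand, had 8.71, 8.48 and 8.71 in anti-AL078604.2 arrays, against 8.03, 8.15 and 7.99 in control arrays (0.58 ± 0.144, adjusted p = 0.203). The inhibitory SMAD6 had 7.30, 7.14 and 7.13 against 6.84, 6.90 and 6.87 (0.32 ± 0.0786, 0.203). The signal transducer gene SMAD3 was lower, with 4.36, 4.20 and 4.45 against 4.78, 4.96 and 4.74 (-0.49 ± 0.129, 0.228), all below the array medians. THBS1, a matrix protein that activates TGF-beta, differed by 0.68 (0.279). Here the array medians did not overlap, at 0.011, 0.073 and 0.105 against -0.037, -0.077 and -0.083, and the list median was 0.10 without control replicate 3. In the Notch pathway the median was -0.02 over 21 genes with 2 higher and 3 lower: RBPJ, its DNA-binding factor, was higher by 0.27 (0.206), the ligand gene DLL1 by 0.34 (0.346), while its coactivator MAML3 differed by -0.38 (0.18) and the receptor gene NOTCH2 by -0.24 (0.35). Wnt pathway genes had a median of -0.08 over 25, with 1 higher and 1 lower, and array medians that barely avoided overlap. The highest anti-AL078604.2 array median was 0 after rounding, and the lowest control array median 0.002. The secreted Wnt antagonist gene DKK1 had 8.36, 7.92 and 7.31 against 7.31, 7.38 and 7.05 (0.62, 0.33), so that replicate 3 lay among the controls, and the receptor genes FZD8 (0.25), RYK (-0.13) and LGR6 (-0.25) differed less. YAP and TEAD targets had a median of -0.02 over 13, with 0 higher and 2 lower, the coactivator gene WWTR1 (-0.19, 0.319) and CRIM1 (-0.14, 0.408).

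Proteases, their inhibitors and matrix genes held some of the widest differences. Beside TFPI2, the 6 tested protease inhibitor and coagulation genes included the thrombin receptor gene F2R, higher by 0.27 (adjusted p = 0.342), PROS1 (0.23, 0.688) and SLPI (-0.12, 0.77), and the list had 2 higher, 0 lower and a median of 0.18 log2. Its array medians were 0.047, 0.078 and 0.123 in anti-AL078604.2 arrays, against -0.083, -0.028 and -0.18 in control arrays, without overlap. Integrins, matrix and matrix proteases had a median of 0.01 over 12 genes, with 3 higher and 3 lower. CPA4 had 8.42, 8.25 and 7.64 in anti-AL078604.2 arrays, against 7.51, 7.36 and 7.34 in control arrays (0.70 ± 0.175, 0.206), with replicate 3 nearest the controls. The secreted serine protease gene HTRA1 had 6.29, 6.17 and 6.34 against 6.85, 6.94 and 6.80 (-0.60 ± 0.146, 0.194), a difference that did not vary much among the treated arrays. TIMP3 had 7.96, 7.82 and 7.88 against 8.34, 8.23 and 8.25, and its second feature differed by -0.25. EDN1, the precursor of the vasoconstrictor endothelin-1, had 9.84, 9.52 and 9.01 against 8.73, 8.79 and 8.74 (0.70 ± 0.187, 0.235). It was the 1 higher member among 14 vasoactive peptide and receptor genes, whose median was 0.00 and which had 0 lower, with ECE1, the enzyme that matures endothelin, at -0.21 (0.648) and the receptor partner gene RAMP2 at 0.17 (0.758).

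Basal epithelial genes lay mostly below 0, while squamous and luminal genes had both directions. Of 9 basal epithelial genes, 8 were below 0 with a median of -0.10 log2, 0 were higher and 1 lower at an unadjusted p under 0.05. Their array medians were -0.04, -0.044 and -0.023 in anti-AL078604.2 arrays, against 0.099, -0.02 and 0.102 in control arrays, and did not overlap. KRT5, the basal keratin, had 7.70, 7.38 and 7.50 in anti-AL078604.2 arrays, against 7.92, 7.97 and 8.05 in control arrays (-0.45 ± 0.0969, adjusted p = 0.159). Its usual partner KRT14 had 7.48, 7.39 and 7.53 against 7.11, 7.26 and 7.25 (0.26 ± 0.123, 0.485), so the keratin pair differed in opposite directions, each without overlap and neither passing. KRT15 differed by -0.26 (0.621) and SFRP1 by -0.15 (0.699). Squamous and cornified envelope genes had 3 higher and 3 lower among 26 and a median of -0.04. The sciellin gene SCEL had 5.14, 4.98 and 4.98 against 4.21, 4.45 and 4.37 (0.69 ± 0.175, 0.206), all below the array medians. ANXA1 was also higher. The kallikrein gene KLK5 had 10.61, 10.40 and 10.16 against 10.82, 10.91 and 10.89 (-0.48, 0.264), and the keratin gene KRT4 differed by -0.58 (0.44). Luminal genes had a median of -0.06 over 19 with 2 higher and 1 lower, including KRT18 (0.19, 0.389), PIP (0.47, 0.461), GATA3 (0.13, 0.489) and XBP1 (-0.26, 0.376). KRT18 has a second feature, outside this count, that differed by only 0.11 (0.732).

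Junction and mesenchymal genes also showed mixed directions. Of 29 epithelial adhesion and junction genes, 3 were higher and 5 lower at an unadjusted p under 0.05, with a median of -0.05 log2. The desmosome genes PKP2 (9.83, 9.75 and 9.79 in anti-AL078604.2 arrays, against 9.39, 9.38 and 9.44 in control arrays, a difference of 0.39 and an adjusted p of 0.193) and DSG2 (0.27, 0.278) were higher. The tight junction claudin genes CLDN4 (-0.38, 0.307) and CLDN8 (-0.32, 0.333) were lower. All 4 were without overlap and none passed. Of 9 mesenchymal genes, 2 were higher and 0 lower, with a median of 0.05, and none was free of overlap. VIM, the intermediate filament of mesenchymal cells, had 8.52, 7.81 and 8.13 against 7.04, 7.38 and 8.23 (0.60 ± 0.223, 0.35), and its other features differed by 0.74 and 0.44. Control replicate 3 lay above 2 of the 3 treated arrays for VIM. The same array was the highest control for the matrix genes FN1 (0.63, 0.494) and LOX (0.35, 0.41). The difference of FN1 was as low as 0.35 when 1 array was left out and was -0.01 with array weights. The repressor gene SNAI1 differed by -0.24 (0.509).

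Stem cell and aldehyde dehydrogenase genes had 0 higher and 3 lower among 9 tested, with a median of -0.10 log2. This list was chosen with earlier results of these data known, so its counts and array medians are descriptions only. CD44, a hyaluronan receptor used to mark breast cancer stem cells, had 10.35, 10.60 and 10.68 in anti-AL078604.2 arrays, against 10.90, 10.90 and 10.81 in control arrays (-0.33 ± 0.0774, adjusted p = 0.191). The pluripotency factor gene SOX2 had 4.91, 4.85 and 4.88 against 5.23, 5.22 and 5.30 (-0.37 ± 0.103, 0.248), and the mitochondrial enzyme gene ALDH2 had 9.06, 8.82 and 8.75 against 9.34, 9.48 and 9.43 (-0.54 ± 0.168, 0.293). These 3 were without overlap, and SOX9 differed by -0.11 (0.522). SOX2 lay below the array medians in the anti-AL078604.2 arrays and near them in the control arrays. Array medians were -0.05, -0.048 and -0.026, against 0.099, 0.029 and 0.083, and did not overlap.

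Cell cycle lists had medians close to 0. DNA replication and G1/S genes had 24 of 31 members below 0, with 0 higher, 6 lower and 0 passing and a median of -0.07 log2. CDC45, part of the replicative helicase, had 7.42, 7.35 and 7.26 in anti-AL078604.2 arrays, against 7.69, 7.74 and 7.60 in control arrays (-0.33 ± 0.0702, adjusted p = 0.15). DTL, a receptor of the ligase that degrades the licensing factor CDT1, had 9.43, 9.70 and 9.71 against 10.06, 9.96 and 9.87 (-0.35 ± 0.0862, 0.197), and the thymidylate synthase gene TYMS differed by -0.15 (0.28). G2/M and mitosis genes had a median of 0.03 over 40, with 4 higher and 1 lower. HMMR, a spindle protein, had 10.07, 10.27 and 10.40 against 10.01, 9.88 and 10.04 (0.27 ± 0.0809, 0.275), the kinase genes AURKA and NEK2 were each higher by 0.15, and BIRC5 differed by -0.21. MYC network genes had a median of -0.01 over 18, with 2 higher and 1 lower. ODC1, the first enzyme of polyamine synthesis, had 10.92, 10.73 and 10.47 against 10.32, 10.38 and 10.12 (0.44 ± 0.117, 0.241), MNT was higher by 0.23 (0.393), and CDK4 differed by -0.20 (0.541).

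**Figure D4:**
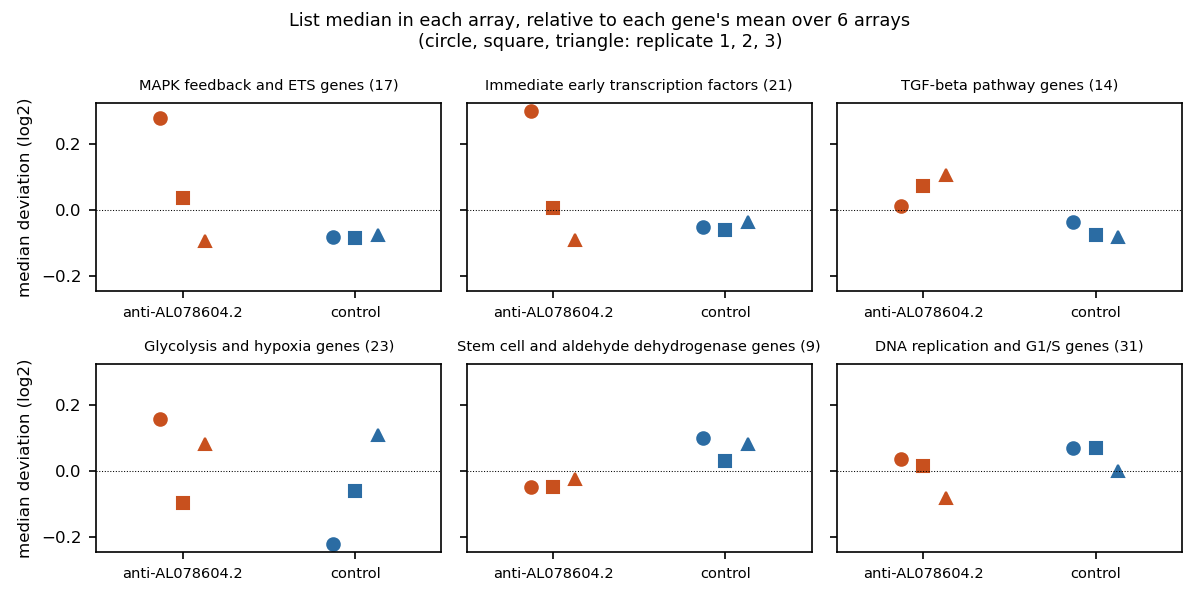
Median of 6 gene lists in each array labelled MDA-MB-468, anti-AL078604.2 arrays on the left and control arrays on the right, as the deviation in log2 from each gene's mean over the 6 arrays. TGF-beta genes and stem cell genes separate the groups, MAPK and immediate early genes stand high in anti-AL078604.2 replicate 1 only, and glycolysis genes vary as much among the control arrays as between groups. The lists were chosen with earlier results of these data known.

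Metabolic genes differed by list. Among 11 targets of NRF2, the regulator of antioxidant genes, 0 were higher and 3 lower, with a median of -0.11 log2. That list too was chosen with earlier results of these data known. Array medians of these targets were 0.043, -0.061 and -0.126 in anti-AL078604.2 arrays, against 0.037, 0.131 and 0.016 in control arrays, and overlapped. The pentose phosphate enzyme gene TKT had 9.50, 9.44 and 9.47 in anti-AL078604.2 arrays, against 9.85, 9.93 and 9.88 in control arrays (-0.42 ± 0.0908, adjusted p = 0.159). GSR, which recycles glutathione, had 11.13, 11.07 and 10.90 against 11.26, 11.37 and 11.31 (-0.28 ± 0.0672, 0.193), and PGD, also of the pentose phosphate pathway, differed by -0.23 (0.279). These 3 were without overlap, and PRDX1 differed by -0.11 (0.489). Cholesterol and fatty acid synthesis genes were even, with 4 higher and 4 lower among 25 and a median of 0.00. HMGCS1, an early enzyme of sterol synthesis, had 9.77, 9.90 and 9.55 against 9.30, 9.23 and 9.21 (0.49 ± 0.109, 0.163), and the desaturase gene FADS1 was higher by 0.32 (0.258), while the regulator gene SREBF2 (-0.25, 0.285) and ACACA, which makes malonyl-CoA (-0.27, 0.30), were lower. Glycolysis and hypoxia genes had 19 of 23 members above 0 and a median of 0.11, with 3 higher and 0 lower, but the median was -0.04 with array weights. BNIP3, a mitophagy receptor, had 10.58, 10.27 and 10.62 against 9.74, 9.89 and 10.32 (0.50, 0.297), and ANGPTL4 had 7.81, 6.59 and 6.88 against 6.31, 6.45 and 6.75 (0.59, 0.449). In both, control replicate 3 lay above 1 treated array, and the array medians of the list ran from -0.099 to 0.158 against -0.222 to 0.109. The histone demethylase gene KDM3A was higher by 0.35 (0.306) and the peptide gene ADM by 0.29 (0.529). Respiratory chain genes had a median of -0.03 over 14, with 1 higher, COX6B1 (0.20, 0.297), and 0 lower.

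Stress and turnover lists had medians between -0.05 and 0.06 log2. p53 targets had a median of 0.02 over 14 with 1 higher, TIGAR, a sugar phosphatase gene that had 7.05, 6.89 and 6.91 in anti-AL078604.2 arrays, against 6.25, 6.50 and 6.52 in control arrays (0.53 ± 0.151, adjusted p = 0.259). Apoptosis regulators had a median of 0.02 over 18 with 2 higher, APAF1 (0.32, 0.363) and BIRC2 (0.24, 0.375), and 2 lower, MCL1 (-0.17, 0.319) and BIRC5 (-0.21, 0.403). Unfolded protein response and ATF4 targets had a median of -0.05 over 22, with 1 higher, MANF (0.24, 0.389), and 1 lower, XBP1. Heat shock proteins and cochaperones had a median of 0.06 over 18, with HSPH1 (0.17, 0.394) and HSPA4 (0.11, 0.443) higher and 0 lower. Lysosome and autophagy genes had a median of -0.02 over 27, with 1 higher, the autophagosome gene MAP1LC3B (0.32, 0.428), and 6 lower, among them the sialidase gene NEU1 (-0.28, 0.318), ULK2 (-0.19, 0.384) and LAMP1 (-0.20, 0.403). Aryl hydrocarbon receptor and retinoid targets had a median of 0.02 over 8 with 1 higher, TIPARP (0.32, 0.373), and 0 lower.

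RNA and protein machinery lists were centred near 0 with single members far out. IPO9 had the most negative difference among 25 nuclear transport receptor genes, whose median was 0.01 log2 and which had 0 higher and 3 lower, the others being XPO5, the exporter of microRNA precursors (-0.23, adjusted p = 0.248), and IPO4 (-0.28, 0.464). WDR4 was the 1 lower member among 28 tRNA modification and ribosome biogenesis genes, which had 3 higher, WDR43 (0.33, 0.363), TRMT6 (0.23, 0.404) and PUS7 (0.20, 0.465), and a median of 0.07. WSB2 and RNF115 led the 3 lower members of 31 ubiquitin ligase genes, which had a median of 0.04 and 2 higher members, CUL5 (0.28, 0.312) and ASB7 (0.26, 0.33). Cytosolic ribosomal proteins had a median of -0.01 over 44 with 2 higher, RPS15 (0.14, 0.297) and RPL39 (0.31, 0.467), and 1 lower, RPL10 (-0.14, 0.394). Ribosomal protein genes have near-identical pseudogenes, and the second RPL39 feature differed by 0.00. Splicing factors had a median of 0.00 over 34 with 3 higher, the splicing kinase gene CLK4 (0.36, 0.297), HNRNPC (0.23, 0.394) and SNRPE (0.31, 0.438), and 2 lower, among them SRSF3 (-0.12, 0.321). The second SNRPE feature differed by -0.09. Proteasome subunits were not analysed here, since no feature carries their names.

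The label MDA-MB-231, another triple-negative line given the same ASO, was also only partly borne out by markers, as percentiles in control arrays. AXL (83.2) and ZEB1 (45.9), chosen as high, stood above the MDA-MB-468 controls (60.3 and 33.3), but VIM (76.7) stood below (82.4). Of those chosen as low, KRT5 stood at 73.6 against 85.8, but EPCAM at 99.2 against 99.3, MTAP at 84.6 against 89.4 and CDKN2A at 74.7 against 78.1. The arrays labelled MDA-MB-231 share no array with the MDA-MB-468 comparison. The spread of each feature was nevertheless estimated over all 18 arrays, so CMTM3 had the same SE of 0.104 in each line. Of the 29855 features, 51 (0.171%) passed in MDA-MB-231, 26 of them named, 17 higher and 9 lower. In the arrays labelled MDA-MB-468 all 26 differed in the same direction, against 61.2% of all named features. Of the 26, 21 had an unadjusted p under 0.05 and 22 were without overlap in that direction, where 10.1% of named genes were higher and 9.54% lower without overlap, and 1, CMTM3, passed in both. CMTM3 changed by 0.76 in MDA-MB-468 and 0.66 in MDA-MB-231, with an interval of the difference of -0.21 to 0.41. WSB2 differed by -0.32 and -0.33 (interval -0.15 to 0.17), and IPO9 by -0.94 and -1.11 (-0.44 to 0.79). In 25 of the 26 the size was smaller in MDA-MB-468, with a median ratio of 0.52 for the higher and 0.77 for the lower genes. These genes were chosen by passing in MDA-MB-231, so their sizes there are selected to be large. Through the shared spread, the same choice favours genes that vary little in the MDA-MB-468 arrays. The counts of 21 and 22 are therefore not independent of the choice, while the shares of all named genes had no such selection.

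Other genes of the 26 lay at intermediate sizes. The homeobox gene HOXC13 had 7.33, 7.06 and 7.08 against 6.87, 6.70 and 6.75 (0.39, adjusted p = 0.183), and differed by 0.48 in MDA-MB-231. CRISPLD2, a gene of a secreted protein, had 8.30, 8.01 and 7.85 against 7.54, 7.59 and 7.60 (0.48, 0.193), the endocytic adaptor gene EPS15L1 had 8.52, 8.58 and 8.85 against 9.12, 9.10 and 9.21 (-0.49, 0.194) and LIX1L had 7.76, 7.81 and 7.70 against 7.98, 8.04 and 8.25 (-0.33, 0.203). The antisense RNA gene FOXD2-AS1 differed by 0.42 (0.293) and the keratin gene KRT23 by 0.24 (0.404). These 6 were without overlap. The genes ETV3 (0.15, 0.527), RND3 (0.14, 0.589), HOXC11 (0.12, 0.679) and ROR1 (-0.18, 0.636) differed least beside IL7R.

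The difference between the lines was tested for every feature, and 0 of 29855 passed, with 1243 (4.16%) at an unadjusted p under 0.05 and a smallest adjusted p of 0.998. Of the 26 genes, 9 had an unadjusted p under 0.05 for the difference and 0 an adjusted one. The 26 were chosen by their MDA-MB-231 values, which also enter the difference. These p-values and the intervals below do not allow for that choice and lean towards a difference. TFPI2 differed by 1.44 in MDA-MB-468 and 2.78 in MDA-MB-231 (95% interval of the difference -2.43 to -0.26). The cytokine receptor gene IL7R differed by 0.19 and 1.47 (-2.13 to -0.44), but its MDA-MB-468 values, 4.58, 4.23 and 4.19 against 3.99, 4.28 and 4.18, lay below the array medians. EGR1 differed by 0.35 and 0.83 (-0.86 to -0.11) and JUN by 0.35 and 0.78 (-0.78 to -0.08). MIR21, the gene of an abundant microRNA in breast cancer, had 8.09, 7.76 and 7.96 in anti-AL078604.2 arrays labelled MDA-MB-468, against 7.41, 7.53 and 7.81 in control arrays, and differed by 0.35, against 0.85 in MDA-MB-231 (-0.85 to -0.15). Whether the feature reads the mature microRNA or its precursor is unknown here. The mature strand, in RefSeq at chr17:59841273-59841294, plus strand of GRCh38.p14, has its seed (bases 2 to 8) in capitals.
hsa-miR-21-5p: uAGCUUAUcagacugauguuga

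Outside these 26, the 10 genes named for the smallest p of the difference between lines, 5 in each direction, included that of the chemokine CCL2, which differed by -0.30 in MDA-MB-468 and 1.42 in MDA-MB-231 (interval of the difference -2.57 to -0.87), and that of the prostaglandin synthase PTGES (-0.10 and 0.58). CCL2 stood at the low end in the arrays labelled MDA-MB-468, with 3.36, 2.85 and 3.36 after the anti-AL078604.2 ASO against 3.14, 3.77 and 3.55. PEX6 (-0.17 and 0.27), HMGN2 (-0.25 and 0.28) and MSH5 (-0.22 and 0.21) also differed downward, and OXGR1 (0.43 and -0.16), FAM241A (0.33 and -0.16), ZNF14 (0.28 and -0.28), CALD1 (0.16 and -0.20) and KANK4 (0.20 and -0.37) upward. None of these 10 differences passed, and the CCL2 interval does not allow for the choice by smallest p. Over the 26 genes, the mean deviation from the control mean in the direction of MDA-MB-231 was 0.65, 0.45 and 0.31 log2 in anti-AL078604.2 replicates 1, 2 and 3, against -0.03, 0 and 0.02 in control replicates 1, 2 and 3.

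**Figure D5:**
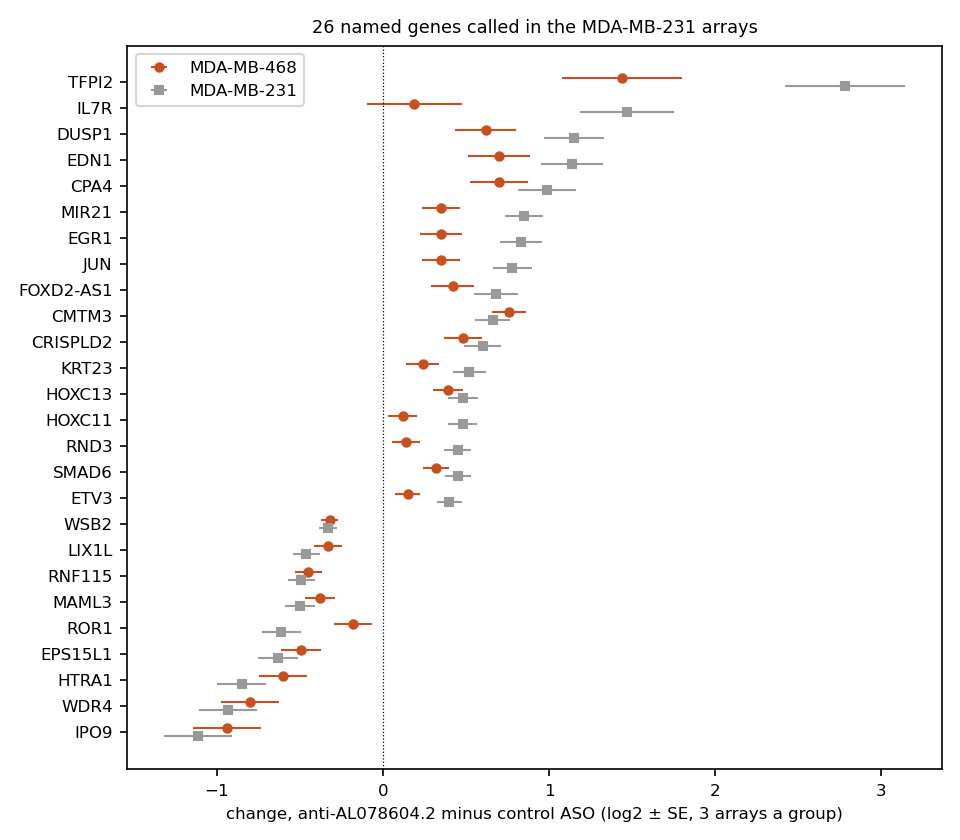
Change of the 26 named genes called in the MDA-MB-231 arrays, anti-AL078604.2 minus control ASO in log2 with the SE of 3 arrays a group, as orange circles for MDA-MB-468 and grey squares for MDA-MB-231. All 26 lie on the same side of 0 in both lines, and all but CMTM3 lie nearer to 0 in MDA-MB-468.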

How the data were processed

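RNA of breast cancer cell lines was labelled and hybridised to Affymetrix Human Gene 2.0 ST arrays, per the labels' protocols. The deposited log2 values per transcript cluster were used as given. The submitters' processing notes name Transcriptome Analysis Console, while its version, the summarization method and the genome build could not be stated from the labels (not given in the sources used here). This table held 53617 features with values from 0.41 to 13.84, of which 16098 carried 1 gene symbol, 0 several and 37519 none, and all named features matched the RefSeq gene table by gene ID. Array number limits the precision.

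Features whose mean exceeded the group median in at least 1 of the 6 groups were tested, 29855 in all, 12003 of them named. limma 3.58.1 in R 4.3.3 fitted group means with an intensity trend to the 18 arrays, which left 12 residual degrees of freedom. Tests were two-sided, Benjamini-Hochberg adjustment ran over the 29855 features, and the threshold was 0.05. The contrast of both lines came from the same fit. The procedure was tested on simulated data. Samples were grouped by title. The members and the 41 gene lists were chosen with earlier results of these data known, and lists used 1 feature a gene, that with the highest mean. They are described by counts and medians, without a test.

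Named genes were those past the threshold, the 12 with the smallest p and the 8 with the largest difference without overlap in each direction, up to 4 with the smallest p per list, up to 5 per direction for the contrast of lines, those called in MDA-MB-231, and marker genes. OCLN, NAE1 and CD68, and the microRNA and long non-coding RNA genes of the closing section other than MIR21, were chosen after their values were seen. Same-numbered replicates had correlations of deviations of -0.124, 0.049 and 0.017, so the numbers were not taken to pair the samples. Alternatives changed the arrays fitted, the filter, the normalization, the variance model, array weights, a replicate block and each replicate in turn.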

Additional observations from a re-analysis of the deposited data

How the results depend on the processing

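The count of 2 calls, both higher, was the same without a filter, with a filter within MDA-MB-468, after quantile normalization, after median centring and with a robust variance, and was 3 without an intensity trend. It was 0 with the 6 MDA-MB-468 arrays alone. With array weights it was 5199, of which 2418 were higher and 2781 lower, while 4799 higher and 5062 lower features had an unadjusted p under 0.05 and 309 features differed between the lines. The replicate number added as a block gave 0 calls, with limma adjusted p of 0.18 for CMTM3 and 0.179 for 17020846, and the labels do not say that the numbers pair the samples. Leaving out 1 replicate gave 0 to 12 calls, 0 to 3 higher and 0 to 9 lower. Leaving out 1 replicate also moved list medians, to 0.10 to 0.20 for TGF-beta genes, -0.07 to 0.00 for junction genes, -0.02 to 0.06 for the MARVEL family, -0.11 to -0.07 for stem cell genes, -0.09 to 0.00 for unfolded protein response genes, -0.08 to -0.01 for lysosome genes, -0.10 to 0.01 for squamous genes, 0.00 to 0.05 for ubiquitin ligase genes, -0.02 to 0.02 for splicing factors, -0.07 to 0.03 for Notch genes and -0.11 to -0.05 for Wnt genes. With array weights the medians were -0.12 for the EGF receptor family, also -0.12 with the filter within MDA-MB-468, -0.14 for luminal genes, -0.01 for junction genes and -0.04 for glycolysis and hypoxia genes. Signs turned for PTGES (-0.23 to 0.02 when 1 replicate was left out, 0.02 without anti-AL078604.2 replicate 3) and, with array weights, for SFRP1 (0.03), FN1 (-0.01) and RARRES1 (-0.09). Both MAPK-related lists had lower medians without anti-AL078604.2 replicate 1, as given above. The cause was not tested for any of these. Of the values for single genes under an alternative, 2775 kept direction and side of the threshold, 142 passed it newly, 13 no longer passed and 4 turned sign. Of the 3131 features with an unadjusted p under 0.05, 1873 to 2208 also had one when 1 replicate was left out. With 3 arrays a group, the median SE of a difference was 0.125 log2.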

Other observations

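Small RNA genes among the named features also differed without passing. MIR3143 had 9.09, 9.22 and 9.10 in anti-AL078604.2 arrays, against 8.83, 8.72 and 8.79 in control arrays (adjusted p = 0.183 in limma). MIR196B, which lies in a HOX cluster, differed by 0.49 (0.297). MIR4756 differed by -0.45 (0.307), and MIR589 had 6.45, 6.25 and 6.06 against 6.66, 6.58 and 6.46 (0.297). In these 4 genes the groups did not overlap. Of 474 microRNA genes tested, 22 were higher (4.64%) and 10 lower (2.11%) at an unadjusted p under 0.05. Both shares lay below those of all tested features, 5.25% higher and 5.24% lower.

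Among 806 long non-coding RNA genes, 38 were higher (4.71%) and 31 lower (3.85%), also below the shares of all tested features. LINC01133 had 9.03, 9.19 and 9.31 in anti-AL078604.2 arrays, against 8.81, 8.68 and 8.86 in control arrays (adjusted p = 0.291), and LINC00997 differed by 0.43 (0.264). LINC01634 had 4.62, 4.99 and 4.61 against 5.31, 5.27 and 5.21 (0.293), and COX10-DT differed by -0.32 (0.286). Each of these was without overlap. Protein-coding genes had 674 higher (6.5%) and 662 lower (6.38%) of 10375, and unnamed features 816 (4.57%) and 846 (4.74%) of 17852.

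Gene span was set beside the direction of the difference. The median genomic span in RefSeq was 42.9 kb for 515 lower and 31.5 kb for 516 higher protein-coding genes with an unadjusted p under 0.05 and no overlap, against 26.6 kb for all 9727 tested. In the quintile of genes with the longest span, 9.71% were lower and 6.83% higher, against 4.21% and 3.75% in the shortest quintile. By chromosome, the widest unevenness among those looked at was on 22, with 3 higher and 20 lower of 234 genes, while chromosome 4 had 33 higher and 14 lower of 336 and chromosome 5 had 42 and 20 of 418. The share of features with an unadjusted p under 0.05 was 8.02% higher and 9.73% lower in the quintile with the highest level, against 2.86% and 2.21% in the lowest quintile. These are descriptions, and no test was made of them.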
